A study of Mus musculus with 40 samples.

Results

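DNA methylation was described in mouse liver at 7 genes of glucose production and handling: Pck1, G6pc, Fbp1, Pklr, Pygl, Slc2a2 and Ppargc1a. The genes were chosen by name, and their CpGs were those listed between 5 kb upstream and 5 kb downstream of each gene body on mouse build mm9. Of the 400298 CpG cytosines listed in the whole series, 63 lay in these windows. They fell in 5 of the 7 genes, with 29 at Pklr, 16 at Fbp1, 10 at Pygl, 4 at Pck1 and 4 at Ppargc1a. No CpG was listed at G6pc or Slc2a2. Reduced representation bisulfite sequencing (RRBS) reads DNA cut by MspI at CCGG. The share of reads that keep a cytosine after bisulfite conversion is the percent methylation of that CpG. The 40 animals were male mice of 9 weeks of the strain C57BL/6 (C57BL/6J in the study's methods), and all libraries were made from liver DNA. Their dams were on a low fat (LF) or a high fat (HF) diet, and the animals themselves were fed LF or HF as adults, with 10 animals for each combination. These groups are called LF/LF, LF/HF, HF/LF and HF/HF, with the maternal diet first and the diet after weaning second. The labels do not give the litter or cage of an animal, so litter and maternal diet cannot be told apart. Per the study's methods, the males of each cage were divided between both diets at weaning, so littermates can stand in both groups of a post-weaning comparison, and the tests treat them as independent mice.

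The liver releases glucose in fasting, first from glycogen and then by gluconeogenesis from lactate, glycerol and amino acids, and it consumes glucose by glycolysis after a meal. Pck1 encodes the cytosolic phosphoenolpyruvate carboxykinase, an early committed enzyme of gluconeogenesis. Fbp1 encodes fructose bisphosphatase, which reverses the phosphofructokinase step, and G6pc encodes the phosphatase that frees glucose in the endoplasmic reticulum. Pklr encodes the pyruvate kinase of liver and red blood cells, the last enzyme of glycolysis. Pygl encodes the liver form of glycogen phosphorylase, and Slc2a2 the main glucose transporter of the hepatocyte membrane. Ppargc1a encodes a transcriptional coactivator that is induced in fasting and acts on gluconeogenic genes. Methylation of CpGs around a start site is usually low in active genes, whereas gene bodies are usually methylated.

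The stretches on which the results turn are shown here from the mm9 reference in the orientation of each gene, with the listed CpGs in capitals. CpGs are named by their distance in bp from the start of the first annotated transcript. The Pck1 stretch lies in the 5′ untranslated region and holds the listed CpGs nearest to a gluconeogenic start site (chr2:172978602-172978631, plus strand). The first Pklr stretch lies upstream of the gene (chr3:88936283-88936312, plus strand) and the second in a coding exon (chr3:88947186-88947215, plus strand). The first Fbp1 stretch lies in an intron of the first transcript (chr13:62988796-62988825, minus strand) and holds the smallest p-value of the 7 genes. The other Fbp1 stretch lies in a coding exon (chr13:62972592-62972621, minus strand). The first Pygl stretch spans the transcription start (chr12:71328648-71328677, minus strand) and the second lies in an intron (chr12:71328052-71328081, minus strand). The Ppargc1a stretch is intronic (chr5:51884947-51884976, minus strand) and holds the only CpG of that gene with enough coverage for a test.
Pck1 +57 and +75: cctCGgtcaacaggggaaatcCGgcaaggc
Pklr -3777, -3774 and -3759: aggCGaCGcaggaaccccatcCGgcagcag
Pklr +7125, +7132, +7135 and +7143: cgcCGggcagCGcCGctgagcCGtgaccca
Fbp1 +828 and +843: ggaagggagcCGccacacagtattcCGggc
Fbp1 +17038 and +17046: cgggacctggtggcagcCGggtatgCGctc
Pygl -1 and +18: gaggggCGgatccccaactccccagCGtct
Pygl +604 and +615: cctcctatgtgatcCGtccaggttcCGggg
Ppargc1a +60209: tcttcctattccaaatgttgaagtcCGgga

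The reads counted at all listed CpGs summed to 2969907 to 23345592 per mouse (median 9245710 over the 40 mice). At the listed CpGs of the 7 genes the median was 17 to 27 reads per mouse, with values only where 10 reads or more were counted. A value on 10 reads moves in steps of 10 percentage points. Between 33 and 39 mice had a value at each of these CpGs, and none had a value in all 40. The HF/HF mouse with the fewest reads had values at 25 of the 43 tested CpGs. A CpG was tested if at least 36 mice had a value, which held for 43 of the 63 CpGs and for 262317 of all 400298. Within a diet group, mice varied with an SD of 6.89 percentage points at the median tested CpG of the 7 genes, against 4.90 at the median of all tested CpGs. These sets differ in level, and among CpGs with a mean between 5% and 95% the medians were 8.85 for the 33 CpGs of the 7 genes and 8.18 for all. This SD was 1.16 times what sampling of the reads alone gives (median over the tested CpGs). Of 25 marker genes of liver cell types, only 5 had tested promoter CpGs. These were Fga of hepatocytes (17.5%), Itgam of myeloid cells (86.6%), Lrat of stellate cells (2.92%) and Krt7 (20.2%) and Sox9 (7.90%) of bile ducts. A change in the mix of liver cells and a change within a cell type cannot be told apart in whole liver.

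G6pc, the gene of the last step of glucose release (chr11:101228875-101239217, plus strand), had its nearest listed CpG 20924 bp upstream. For Slc2a2, the glucose transporter gene (chr3:28596825-28627278, plus strand), the nearest lay 6336 bp upstream. The reference holds 201 CpGs and 23 CCGG sites in the G6pc window and 402 CpGs and 22 CCGG sites in the Slc2a2 window. The fragments that carried listed CpGs at the other 5 genes were 69 to 185 bp long between their CCGG sites. Fragments of such length numbered 1 at G6pc and 2 at Slc2a2, and none of these held a listed CpG. At the other genes 3 of 5 such fragments held listed CpGs at Pck1, 7 of 9 at Pklr, 5 of 5 at Fbp1, 2 of 3 at Ppargc1a and 3 of 6 at Pygl. The listed RRBS CpGs therefore give no methylation value for G6pc or Slc2a2, and nothing follows for these genes from the values below. The table lists CpGs by their coverage, so a CpG that is not listed may still have been sequenced.

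Methylation differed widely along the genes and was low near the start of Pygl but not near that of Pck1. At Pck1, +57 and +75 in the 5′ untranslated region averaged 31.4% and 36.2% over the mice with a value. Of 107622 tested CpGs from 1 kb upstream to 500 bp downstream of a coding start, only 3.94% were at or above the former and 3.68% at or above the latter. Downstream of the gene, Pck1 +6305 averaged 13.7% and +7055 averaged 34.4%. At the start of Pygl, the CpGs at -1 and +18 averaged 0.492% and 0.181%, and -11 averaged 6.58%. The 7 Pygl CpGs of the intron, up to +649, averaged 3.27% to 21.0%.

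Pklr and Fbp1 changed level along their length. The 8 Pklr CpGs between -3857 and -3612 averaged 2.24% to 10.7%. In the coding exon, the 5 CpGs from +7125 to +7154 averaged 59.3% to 68.9%, and the 3 intronic CpGs from +7480 to +7510 averaged 83.3% to 94.3%. The 13 CpGs downstream of Pklr lie in coding exons of the neighbouring gene Hcn3, which encodes an ion channel. Of these, 4 averaged 1.96% to 7.50%, 5 averaged 46.7% to 79.8% and 4 averaged 70.8% to 96.2%. At Fbp1, the 5 CpGs from +577 to +843 averaged 14.2% to 28.8%. They lie in an intron of the first transcript, and +577 and +607 lie in the untranslated region of another Fbp1 transcript. A pair of intronic CpGs at +8458 and +8570 averaged 52.9% and 77.4%. The 3 coding CpGs from +17038 to +17116 averaged 73.7% to 97.4% and the 6 intronic CpG cytosines from +20233 to +20317 averaged 92.9% to 97.7%. Among the latter, 2 CpGs were read on both strands, and each strand is listed, counted and averaged on its own throughout. Ppargc1a was methylated at all 4 listed CpGs, with 85.3% in an intron at +60209 and 92.6% to 94.6% at the 3 CpGs of a coding exon from +79729 to +79768. No CpG was listed near the Ppargc1a start.

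**Figure D1:**
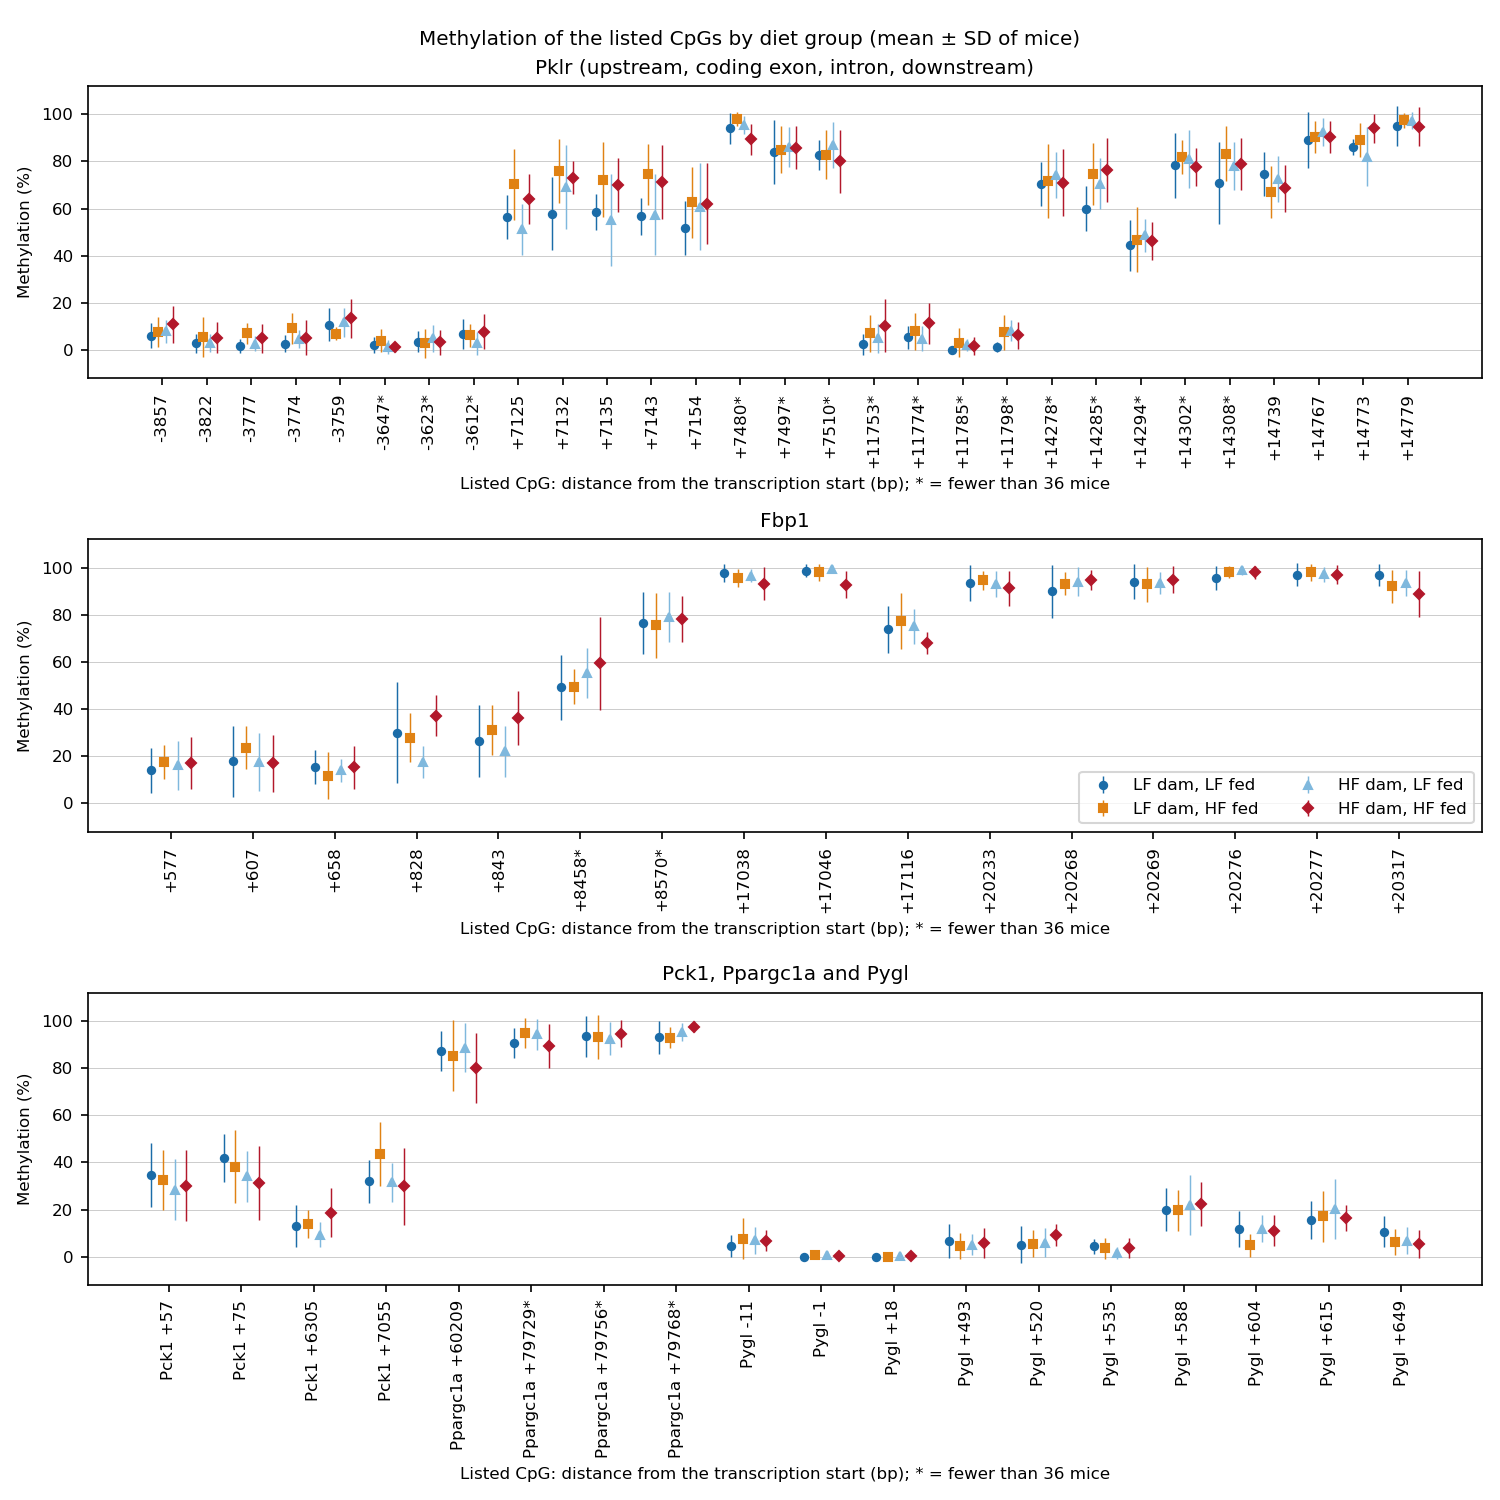
Percent methylation of the 63 listed CpGs (vertical axis, percent, mean ± SD over the mice of each of the 4 diet groups) in order of distance from the transcription start in bp. Mean levels run from 14.2% to 97.7% along Fbp1 and from 0.181% to 21.0% along Pygl.

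The first question was whether maternal diet changed methylation in animals fed HF after weaning. No CpG of the 7 genes passed an FDR of 5% between HF/HF and LF/HF animals (0 of 43, smallest FDR 0.822), and the share passing over all tested CpGs was 0%. With the unadjusted p below 0.05 there were 4 of 43 CpGs, with 2 higher and 2 lower in HF/HF, against 3.72% of all CpGs tested. Differences ran from -13.8 to 9.35 percentage points with a median of -0.588, whereas the median over all tested CpGs was 0. The CpGs concerned were Pklr -3759, Pygl +604 and the Fbp1 coding CpGs +17046 and +17116.

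Pklr -3759 ranged from 0% to 25% (median 13.9%) in HF/HF and from 3.45% to 13.0% (median 6.16%) in LF/HF. The groups overlapped, and HF/HF was 6.51 percentage points higher (95% CI 0.756 to 12.3, exact permutation test, two-sided as are all tests here, p = 0.0291, FDR 0.822). At Pygl +604, values ran from 3.45% to 23.8% (median 9.46%) in HF/HF and from 0% to 13.6% (median 4.41%) in LF/HF, where 4 of the 10 mice were at 0%. HF/HF was 6.33 percentage points higher at this CpG (95% CI 0.920 to 11.7, permutation p = 0.0235). Fbp1 +17046 ranged from 83.3% to 100% (median 93.3%) in HF/HF and from 90% to 100% (median 100%) in LF/HF. It was fully methylated in 2 HF/HF and in 7 LF/HF mice, with a difference of -5.23 percentage points (95% CI -9.83 to -0.637, exact permutation p = 0.0281). Fbp1 +17116 ranged from 61.9% to 75.6% (median 66.7%) in HF/HF and from 54.5% to 91.7% (median 77.6%) in LF/HF. Here the difference was -9.36 percentage points (95% CI -18.2 to -0.530, exact permutation p = 0.0403). Without the mouse with the fewest reads, 2 of the 4 CpGs had p below 0.05, and those of Fbp1 had p = 0.0563 and 0.0606 by the Student's test.

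The largest difference of this comparison was at Pck1 +7055, downstream of the carboxykinase gene. Values ran from 5.88% to 61.5% (median 28.7%) in HF/HF and from 15.4% to 63.6% (median 43.9%) in LF/HF. The difference of -13.8 percentage points had a 95% CI of -27.8 to 0.282 (permutation p = 0.0558), and the groups overlapped over most of their range.

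At the Pck1 start itself no difference was seen beyond the spread between mice. Pck1 +57 ranged from 15.8% to 54.5% (median 35%) in LF/LF, from 13.3% to 55.6% (median 32.4%) in LF/HF, from 9.52% to 47.8% (median 29.6%) in HF/LF and from 4.76% to 48.1% (median 33%) in HF/HF. At +75 the corresponding ranges were 27.8% to 60% (median 41.7%), 15.4% to 66.7% (median 38.4%), 20% to 55% (median 32.8%) and 4.76% to 54.5% (median 32.7%). The ranges of all 4 groups overlapped at both CpGs. For +57 the maternal difference was -2.25 percentage points in HF fed animals (95% CI -15.4 to 10.9, permutation p = 0.719) and -6.34 in LF fed animals (95% CI -19.2 to 6.50, exact permutation p = 0.307). These intervals do not exclude changes of 10 percentage points. The values of +57 and +75 were correlated across the 39 mice (r = 0.829, Spearman's rho = 0.808). The pair lies 18 bp apart and shares most of its reads, so the correlation describes shared molecules and depth as well as mice.

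Maternal diet was also compared in animals fed LF after weaning. Between HF/LF and LF/LF animals 0 of 43 CpGs passed an FDR of 5% (smallest FDR 0.818, 0% of all tested CpGs), and 1 had an unadjusted p below 0.05 where 3.99% of all CpGs did. This was Pygl +535, which ranged from 0% to 6.90% (median 0%) in HF/LF and from 0% to 7.69% (median 5.76%) in LF/LF. The ranges overlapped, with a difference of -2.93 percentage points (95% CI -5.83 to -0.0193, Student's p = 0.0487, exact permutation p = 0.0522). The largest difference, at Fbp1 +828, was -12.3 percentage points (95% CI -28.0 to 3.41, exact permutation p = 0.119). LF/LF mice ranged there from 0% to 70% (median 27.6%) and HF/LF mice from 7.69% to 29.4% (median 18.2%), so that the latter lay within the range of the former.

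**Figure D2:**
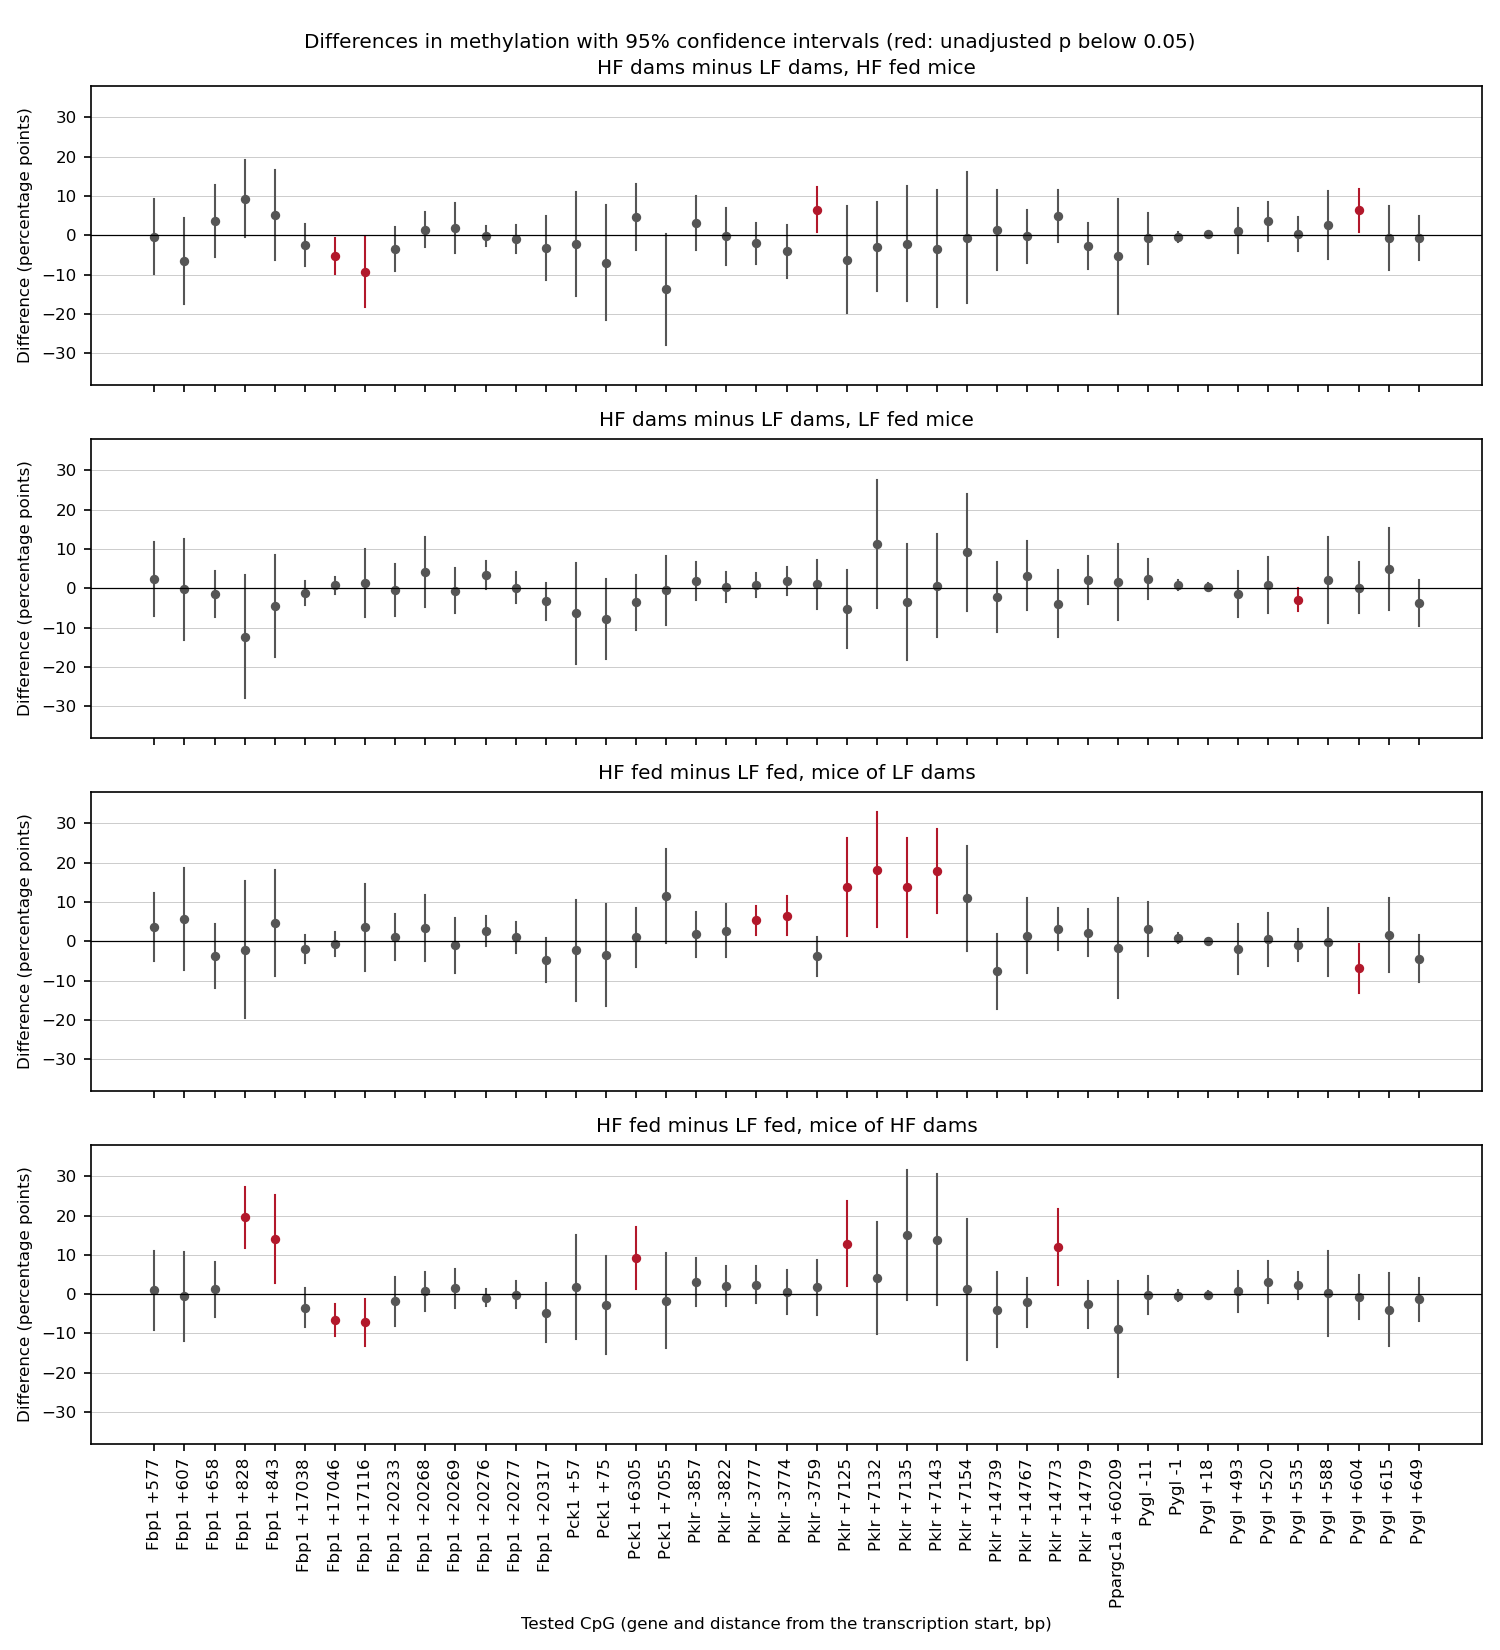
Difference in percent methylation (vertical axis, percentage points) with its 95% confidence interval at the 43 tested CpGs in the 4 comparisons, red where the unadjusted p was below 0.05. The red CpGs number 4, 1, 7 and 7 from the top panel to the bottom, 4 of them at the Pklr coding exon in animals born from LF fed dams.

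The diet after weaning was compared in animals born from LF fed dams. Again 0 CpGs of the 7 genes passed an FDR of 5% between LF/HF and LF/LF animals (smallest FDR 0.808), beside 0.00084% of all tested CpGs (2 of 238168). With unadjusted p below 0.05 there were 7 of 42, which is 16.7% against 4.03% of all tested CpGs, with 6 higher and 1 lower in HF fed animals. All 6 of the higher CpGs were at Pklr, with 4 on the coding exon fragment and 2 on the upstream fragment. The 4 exon CpGs were read on the same strand of their fragment and share most of their reads, as do both upstream CpGs, so these 7 CpGs do not stand for 7 separate measurements. The 2 sets also differ in level, since 53.9% of all tested CpGs averaged below 10%, against 12 of the 43 at the 7 genes. Shares with p below 0.05 were not compared at matched levels in any comparison, so they are not like for like.

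The pyruvate kinase exon had the largest differences. Over the mice with all 5 CpGs of the fragment, its mean was 56.3% ± 5.93 (SD, 9 mice) in LF/LF and 71.2% ± 12.5 (SD, 9 mice) in LF/HF. It was 58.7% ± 13.4 (SD, 10 mice) in HF/LF and 68.1% ± 6.51 (SD, 8 mice) in HF/HF. Pklr +7143 ranged from 46.7% to 70% (median 54.5%) in LF/LF and from 50% to 88% (median 78.9%) in LF/HF. Of the 9 LF/HF mice, 6 lay above the highest LF/LF mouse, and the ranges overlapped between 50% and 70%. The difference of 17.9 percentage points had a 95% CI of 7.28 to 28.5 (exact permutation p = 0.00399, FDR 0.808). Pklr +7132 ranged from 36.8% to 81.8% (median 53.8%) in LF/LF and from 57.9% to 92.9% (median 80%) in LF/HF. This gave the largest difference of the comparison, 18.2 percentage points (95% CI 3.70 to 32.8, exact permutation p = 0.0195). At +7125 the difference was 13.9 percentage points (95% CI 1.31 to 26.4, exact permutation p = 0.0336), and at +7135 it was 13.7 (95% CI 1.15 to 26.2, exact permutation p = 0.0364). The fifth CpG of the exon, +7154, was 10.9 percentage points higher in LF/HF, with a 95% CI of -2.43 to 24.3 (exact permutation p = 0.102).

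In the upstream Pklr fragment, levels were low and the differences were a few percentage points. Pklr -3777 ranged from 0% to 8.77% (median 0%) in LF/LF, where 7 of 10 mice were at 0%, and from 0% to 15.8% (median 6.78%) in LF/HF, where 1 mouse was. The difference was 5.32 percentage points (95% CI 1.68 to 8.96, permutation p = 0.00649). Pklr -3774 ranged from 0% to 10.5% (median 1.75%) in LF/LF and from 0% to 20.8% (median 8.60%) in LF/HF, with a difference of 6.48 percentage points (95% CI 1.49 to 11.5, permutation p = 0.0150). The neighbouring CpG at -3759 averaged 10.8% in LF/LF and 6.95% in LF/HF (difference -3.82, permutation p = 0.135). The only CpG that was lower in LF/HF with p below 0.05 was Pygl +604, which ranged from 4.55% to 28% (median 10.5%) in LF/LF and from 0% to 13.6% (median 4.41%) in LF/HF. The groups overlapped, with a difference of -6.88 percentage points (95% CI -13.1 to -0.668, exact permutation p = 0.0267). Pygl +604 was also counted for maternal diet in HF fed animals, through the same LF/HF mice. Its mean was 4.79% in LF/HF and 11.1% to 11.8% in the other groups.

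**Figure D3:**
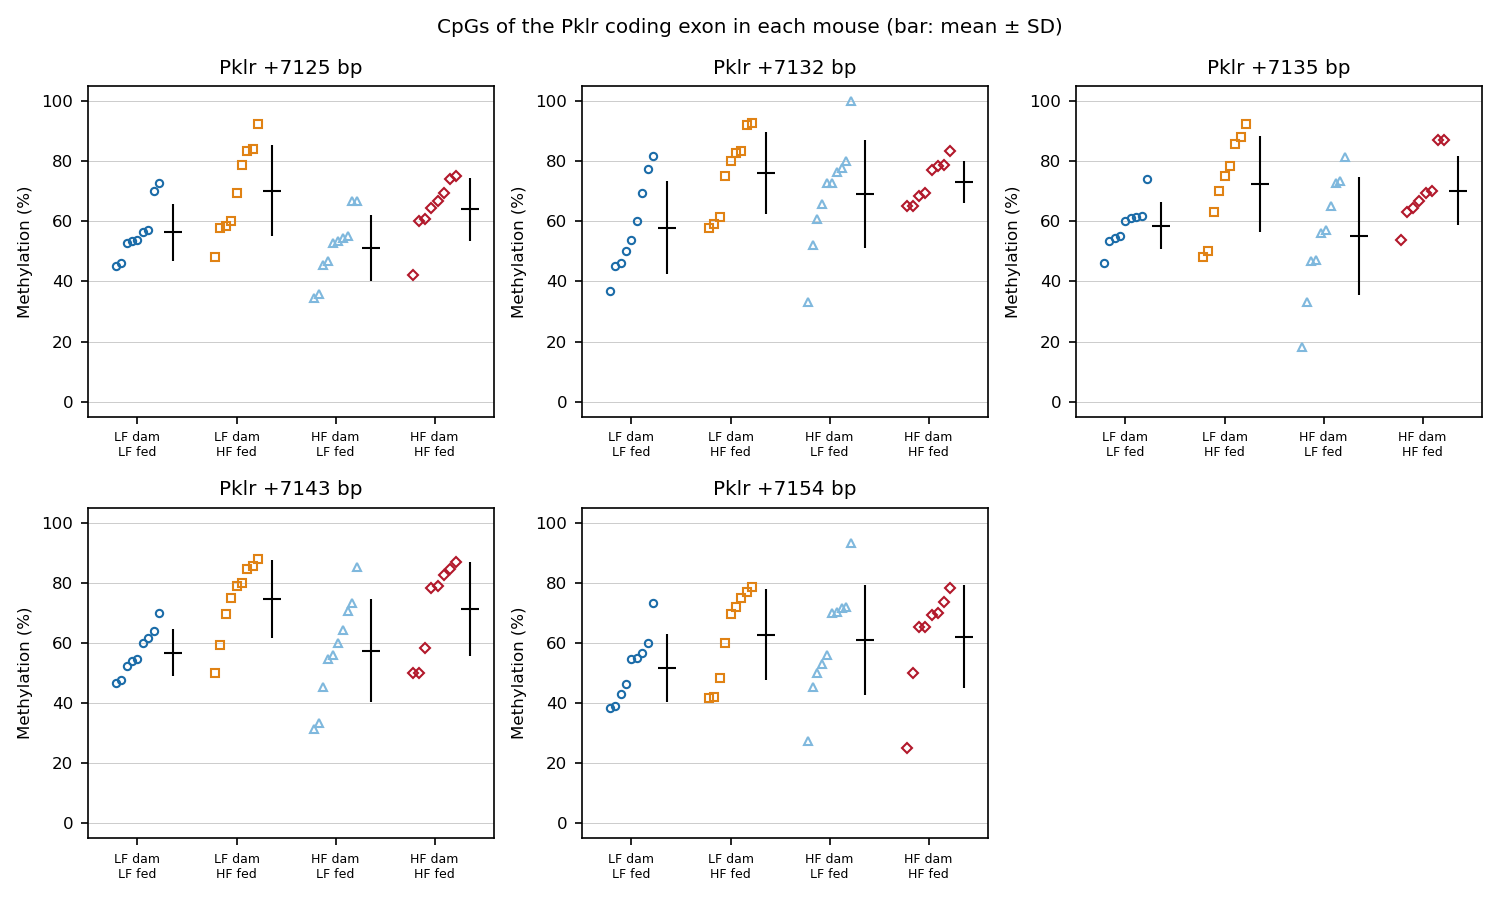
Percent methylation of the 5 CpGs of the Pklr coding exon (vertical axis, percent) in each mouse of the 4 diet groups, with mean ± SD beside the points. At +7143 the LF/HF mice range up to 88% and the LF/LF mice up to 70%, and the groups overlap at every CpG.

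Among offspring of HF fed dams, comparing the diets after weaning gave 0 of 43 CpGs at an FDR of 5% (smallest FDR 0.678), beside 0.00124% of all tested CpGs (3 of 242393). With unadjusted p below 0.05 there were 7, which is 16.3% against 4.06% of all tested CpGs, with 5 higher and 2 lower in HF/HF than in HF/LF. They were 4 CpGs of Fbp1 on a pair of fragments, 2 of Pklr and 1 of Pck1.

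Fbp1 +828, in the fructose bisphosphatase gene, had the smallest p-value of the 7 genes. It ranged from 7.69% to 29.4% (median 18.2%) in HF/LF and from 23.1% to 52.4% (median 38.9%) in HF/HF. Of the 9 HF/LF mice with a value, 1 (at 29.4%) reached the range of HF/HF. The difference of 19.5 percentage points had a 95% CI of 11.8 to 27.3 (Student's p = 6.74e-05, FDR 0.678, exact permutation p = 0.000123). Its neighbour +843, 15 bp away on the same fragment, ranged from 7.69% to 38.2% (median 19.0%) in HF/LF and from 12.5% to 52.4% (median 37.5%) in HF/HF (difference 14.1, 95% CI 2.95 to 25.2, exact permutation p = 0.0186). In animals born from LF fed dams +828 differed by -2.10 percentage points (95% CI -19.6 to 15.4, exact permutation p = 0.804), with 0% to 70% in LF/LF and 13.6% to 45.5% in LF/HF. The spread at +828 was largest in LF/LF, where the SD was 21.3 percentage points, against 6.76 in HF/LF.

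At the Fbp1 coding CpGs the differences had the opposite sign. Fbp1 +17046 was at 100% in 9 of 10 HF/LF mice, with the other at 94.7%, and at 100% in 2 of 9 HF/HF mice, where the lowest was 83.3%. The means were 99.5% in HF/LF and 92.8% in HF/HF, a difference of -6.64 percentage points (95% CI -10.7 to -2.62, exact permutation p = 0.00191, FDR 0.820). At +17116, HF/LF mice ranged from 63.9% to 89.5% (median 74.2%) and HF/HF mice from 61.9% to 75.6% (median 66.7%), which differed by -7.12 percentage points (95% CI -13.1 to -1.15, exact permutation p = 0.0198). The third CpG of this exon, +17038, averaged 96.6% in HF/LF and 93.1% in HF/HF (95% CI of the difference -8.46 to 1.54).

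Pck1 +6305, downstream of the gene, ranged from 3.70% to 16.7% (median 8.33%) in HF/LF and from 6.06% to 40% (median 14.3%) in HF/HF. The mean was 9.25 percentage points higher in HF/HF (95% CI 1.41 to 17.1, exact permutation p = 0.0177). Pklr +14773, in a coding exon of Hcn3, ranged from 63.6% to 97.1% (median 85.1%) in HF/LF and from 81.8% to 100% (median 95.5%) in HF/HF (difference 11.9, 95% CI 2.23 to 21.6, exact permutation p = 0.0193). Pklr +7125, of the pyruvate kinase exon, ranged from 34.4% to 66.7% (median 53.3%) in HF/LF and from 42.1% to 75% (median 65.5%) in HF/HF. The difference there was 12.9 percentage points (95% CI 2.07 to 23.7, exact permutation p = 0.0242), beside 13.9 in animals born from LF fed dams. The other exon CpGs were higher in HF/HF by 15.1 at +7135 (exact permutation p = 0.0710), 13.8 at +7143 (exact permutation p = 0.0989), 4.02 at +7132 (exact permutation p = 0.573) and 1.21 at +7154 (exact permutation p = 0.898). At +7143 the HF/LF mice ranged from 31.3% to 85.2% (median 58%) and the HF/HF mice from 50% to 87.0% (median 78.6%). Of the 5 exon CpGs, +7125 alone had p below 0.05 for both maternal diets.

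**Figure D4:**
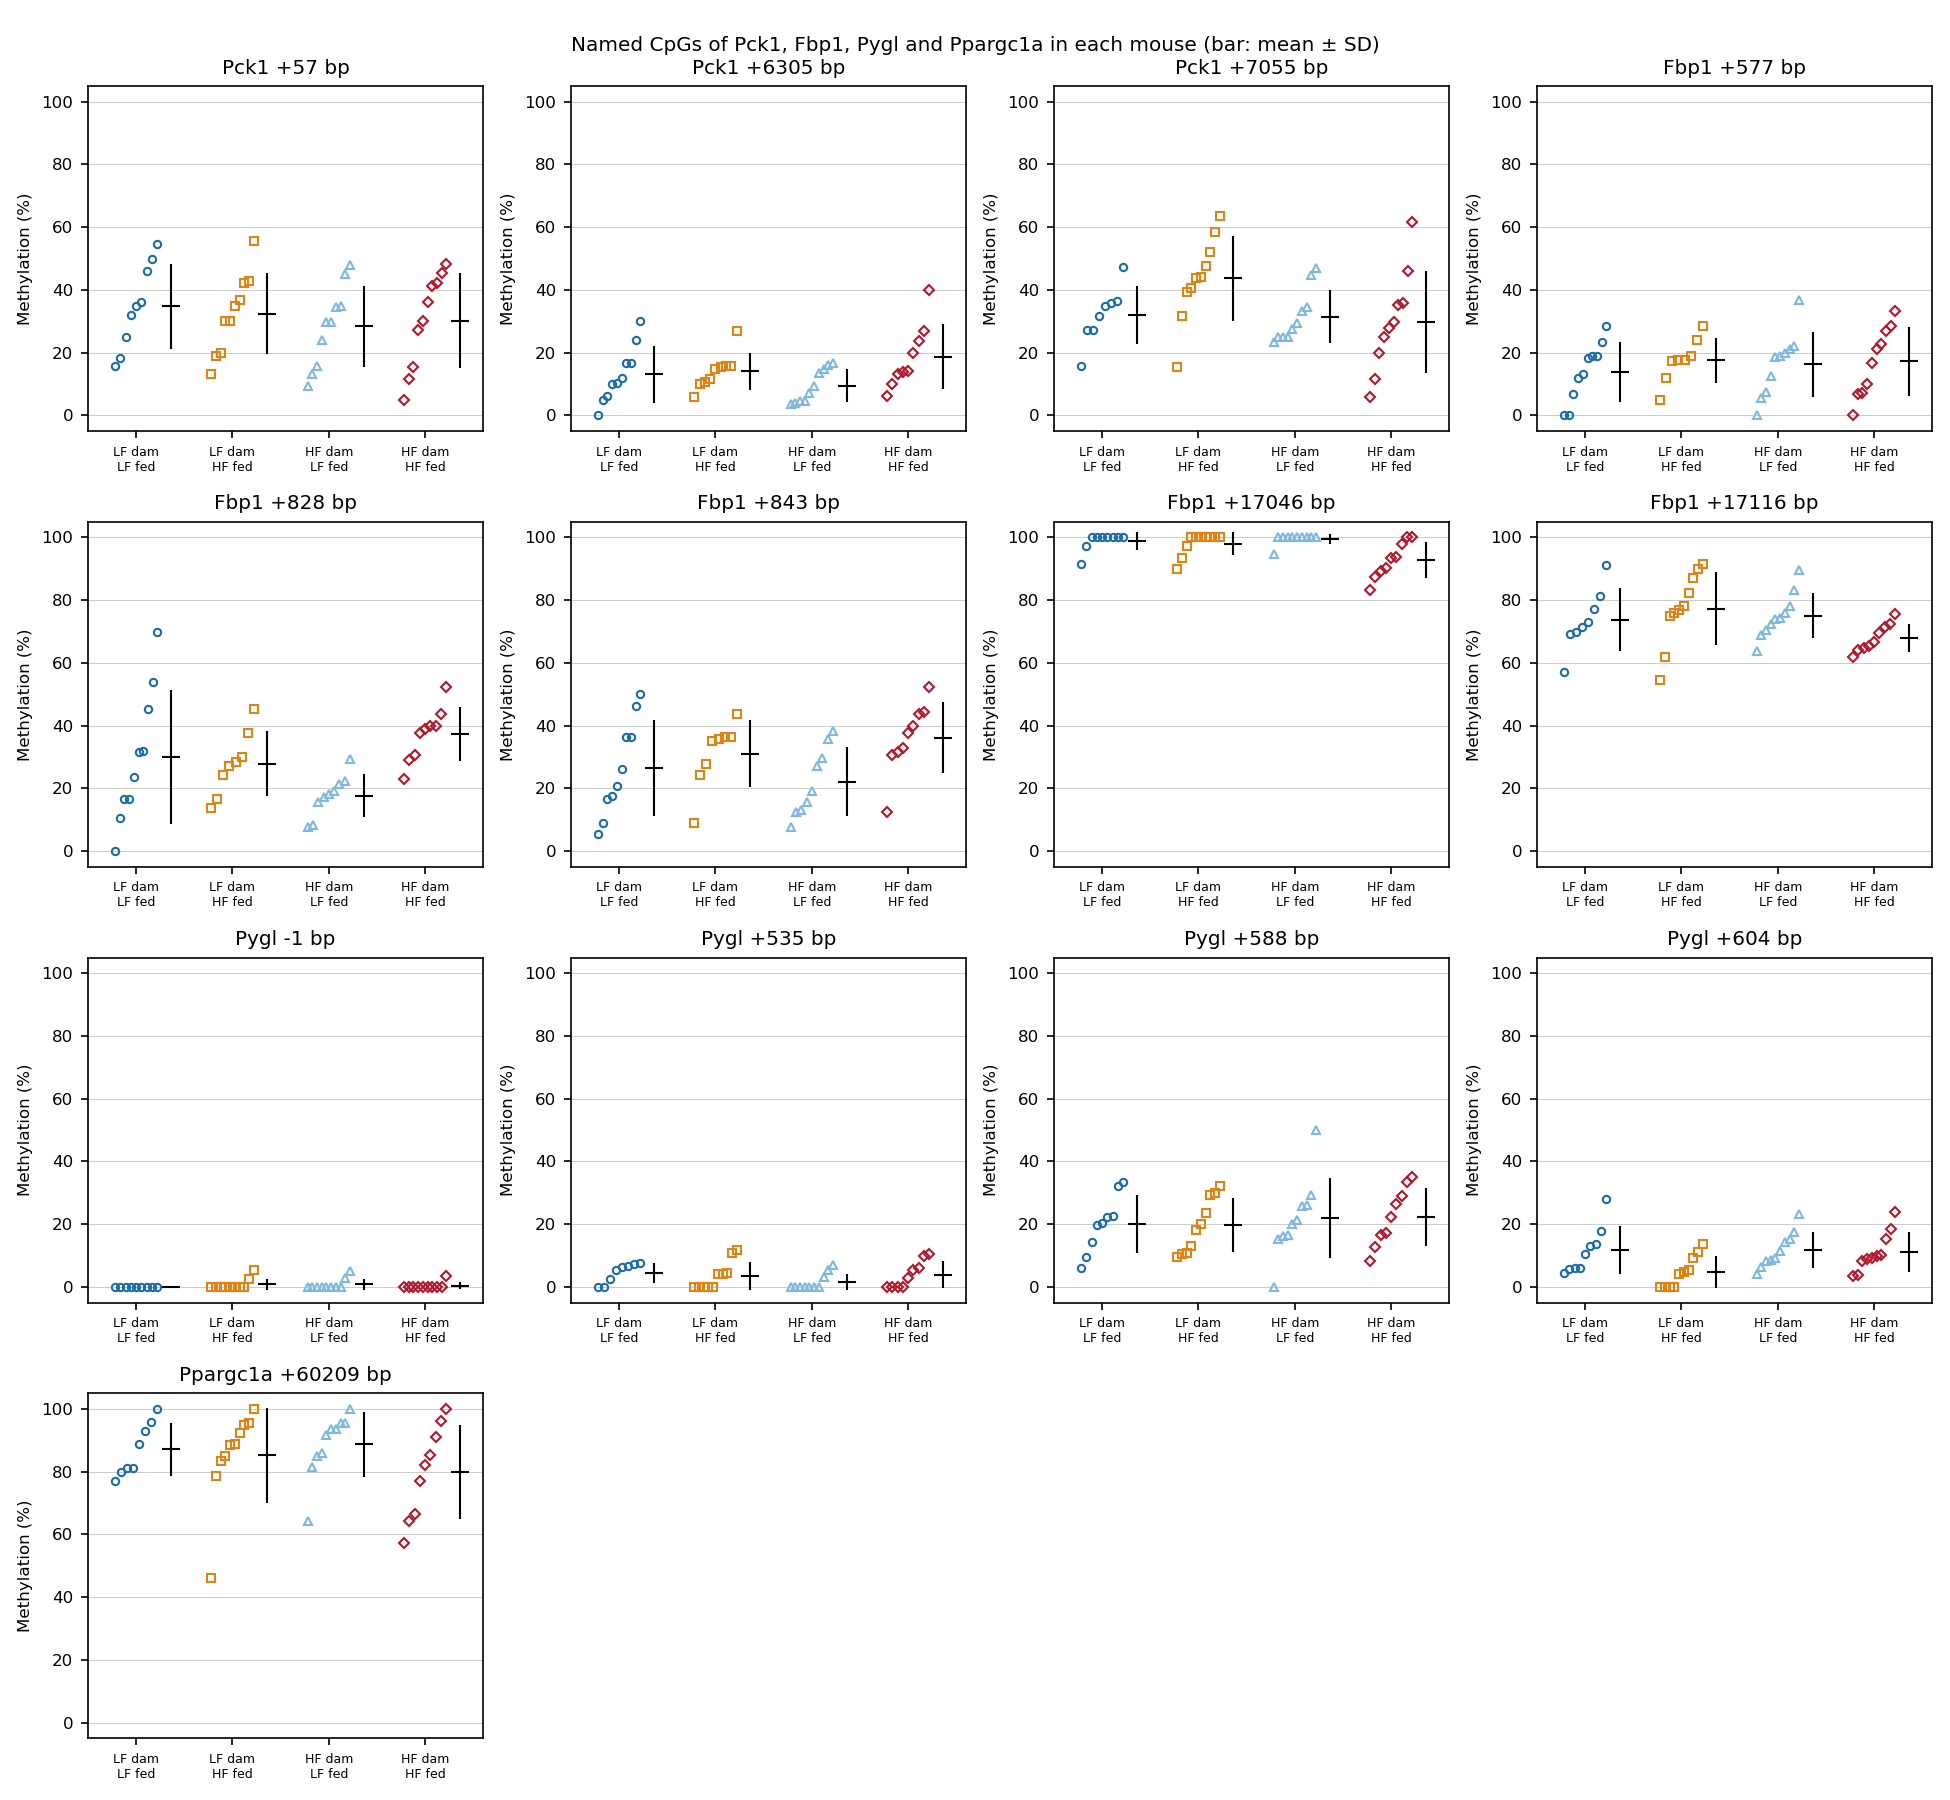
Percent methylation (vertical axis, percent) of 13 CpGs of Pck1, Fbp1, Pygl and Ppargc1a in each mouse of the 4 diet groups, with mean ± SD beside the points. HF/HF mice range from 23.1% to 52.4% at Fbp1 +828 against 7.69% to 29.4% in HF/LF, and 9 of 10 HF/LF mice are at 100% at Fbp1 +17046.

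Ppargc1a +60209, the intronic CpG of the coactivator gene, ranged from 76.9% to 100% (median 85.1%) in LF/LF, from 46.2% to 100% (median 88.7%) in LF/HF, from 64.3% to 100% (median 92.7%) in HF/LF and from 57.1% to 100% (median 82.1%) in HF/HF. The groups overlapped. The largest of the 4 differences was -8.81 percentage points for HF/HF against HF/LF (95% CI -21.1 to 3.44, exact permutation p = 0.146). Fbp1 +577, the tested CpG nearest the Fbp1 start, ranged from 0% to 28.6% (median 15.6%) in LF/LF, from 4.76% to 28.6% (median 17.6%) in LF/HF, from 0% to 36.7% (median 18.8%) in HF/LF and from 0% to 33.3% (median 18.9%) in HF/HF. The groups overlapped almost wholly, and the differences ran from -0.325 to 3.65 percentage points (smallest exact permutation p = 0.389). Pygl +588, the CpG of the glycogen phosphorylase gene with the largest spread, ranged from 0% to 50% over the 4 groups, with group means between 19.7% and 22.3% (smallest exact permutation p = 0.523). At the start of Pygl, -1 was at 0% in all 9 LF/LF mice with a value and in 8 or 9 of the 10 mice of each other group, and no mouse was above 5.26%. The differences at this CpG were within 0.786 percentage points in the 4 comparisons (smallest exact permutation p = 0.474). At Pygl +18 all mice born from LF fed dams were at 0%, so that Student's test of the diet after weaning was undefined there. The highest value in animals born from HF fed dams was 4.35%, and HF/HF differed from HF/LF by -0.165 percentage points (95% CI -1.24 to 0.911).

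Whether the effect of one diet depended on the other was tested as an interaction over the 4 groups. No CpG of the 7 genes passed an FDR of 5% (0 of 43, smallest FDR 0.868, 0% of all tested CpGs). With unadjusted p below 0.05 there were 2, which is 4.65% against 4.18% of all tested CpGs. Both were at Fbp1, where the interaction was 21.6 percentage points at +828 (p = 0.0223) and -5.95 at +17046 (p = 0.0191). The Pklr exon CpGs were not among them.

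Means over all tested CpGs of a gene window, the gene body with 5 kb to each side, were compared for the 4 genes with at least 3 tested CpGs. The 14 CpGs of the Pklr window are 5 upstream, 5 in its coding exon and 4 in Hcn3. None of the 16 differences passed an FDR of 5%, nor did any of the 14497 genes tested in the 4 comparisons. Pck1 averaged 29.7% ± 6.18 in LF/LF, 32.6% ± 5.68 in LF/HF, 25.9% ± 5.70 in HF/LF and 27.8% ± 11.6 in HF/HF (SD, 10 mice each). Pygl averaged 7.80% ± 2.08, 7.01% ± 2.23, 8.20% ± 3.44 and 8.03% ± 2.32 in the same order. Pklr averaged 47.0% ± 2.36 in LF/LF and 52.1% ± 5.52 in LF/HF, a difference of 5.18 percentage points (95% CI 1.19 to 9.16, p = 0.0138, FDR 0.903). In HF/LF and HF/HF Pklr averaged 47.7% ± 5.50 and 47.9% ± 14.8. The HF/HF mouse of replicate 8 had values at 5 of the 14 Pklr CpGs, the upstream ones with low methylation, and a mean of 6.26%. Without it, the difference between HF/HF and HF/LF was 4.83 percentage points (95% CI 0.631 to 9.04, p = 0.0267, FDR 0.834) in place of 0.203. Fbp1 averaged 71.4% ± 7.35 in LF/HF and 65.4% ± 5.99 in LF/LF, a difference of 6.04 percentage points (95% CI -0.261 to 12.3). Both LF/HF mice above 80% had values at 10 of the 14 Fbp1 CpGs. When each CpG was taken as its deviation from its own mean over mice, so that missing CpGs carry no weight, the Fbp1 difference was 0.638 percentage points. On the same scale Pklr differed by 5.78 in animals born from LF fed dams (95% CI 2.93 to 8.63, p = 0.000468, FDR 0.449) and by 3.51 in those born from HF fed dams (95% CI -0.968 to 7.98, p = 0.117). This scale was chosen after the means were seen.

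**Figure D5:**
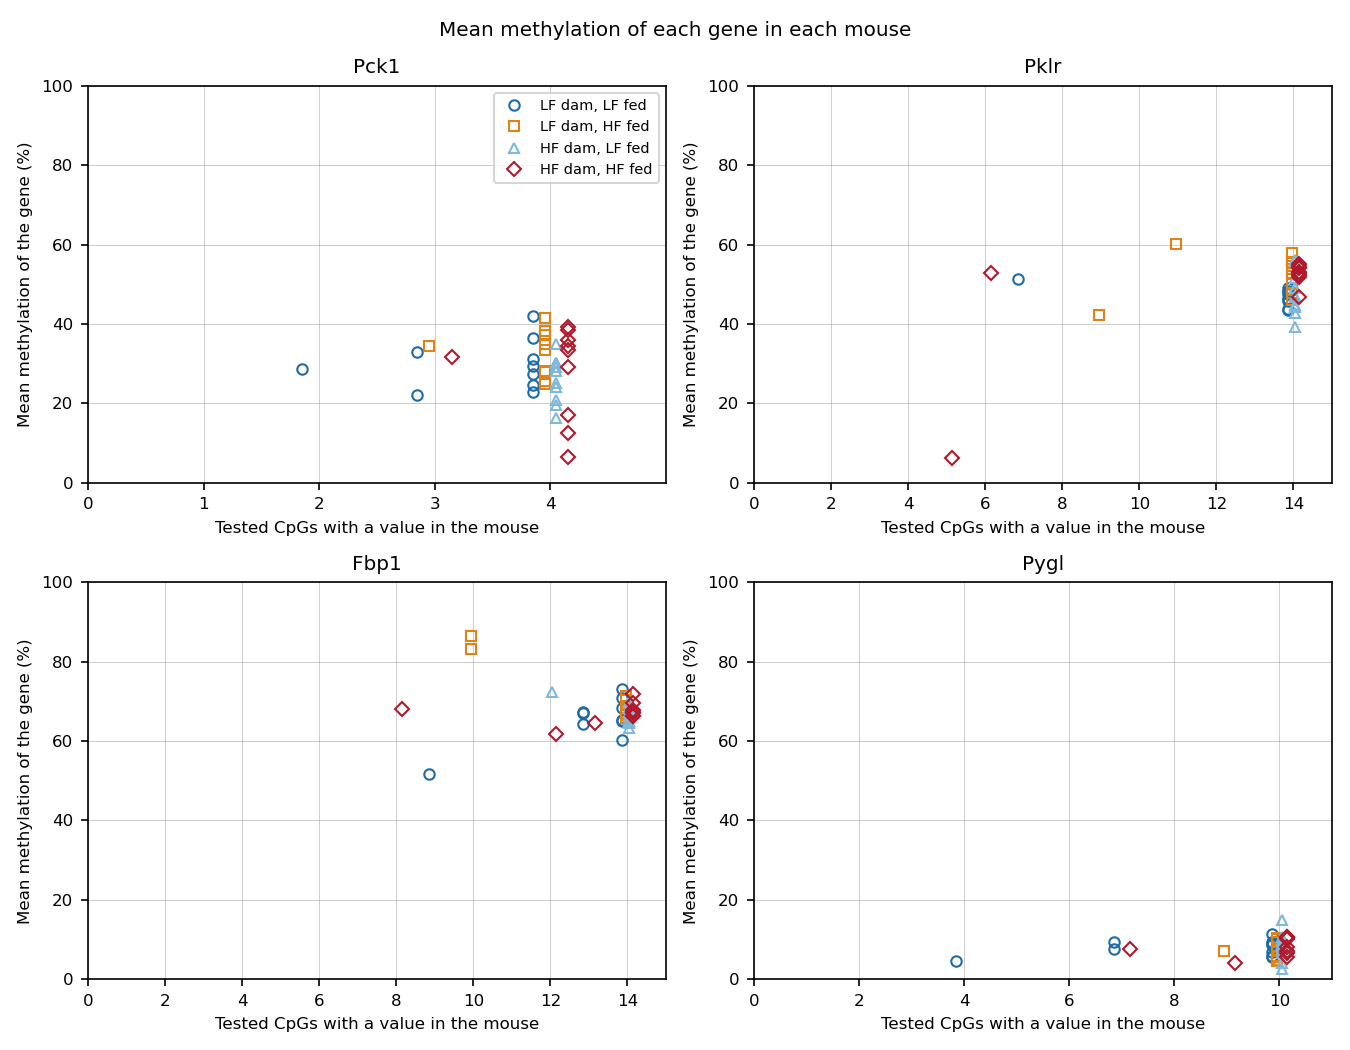
Mean methylation of each gene window in each mouse (vertical axis, percent) against the number of its tested CpGs that had a value in that mouse (horizontal axis), by diet group. The HF/HF mouse at 6.26% for Pklr had values at 5 of 14 CpGs, and both LF/HF mice above 80% for Fbp1 had values at 10 of 14.

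For context, 49 other genes of glucose and glycogen metabolism and its control were examined in the same way. Of these, 43 had tested CpGs, 760 in all. None passed an FDR of 5%. With unadjusted p below 0.05 there were 15 of 651 (2.30%) and 19 of 654 (2.91%) for maternal diet in HF and LF fed animals, and 25 of 646 (3.87%) and 26 of 666 (3.90%) for the diet after weaning in animals of LF and HF fed dams. Slc37a4, which carries glucose phosphate to the G6pc enzyme, averaged 1.26% over 30 tested CpGs.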

How the data were processed

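RRBS libraries from the livers of 40 mice were used, 10 for each combination of maternal and post-weaning diet, as the labels give them. Per the labels, DNA was cut with MspI, size selected at 150 to 600 bp and converted with bisulfite, and the submitters' processing notes name Bismark (its version is not given in the sources used here) and build mm9. For each CpG cytosine and mouse the authors deposited the count of methylated reads and the count of all reads, with no normalization, the latter only from 10 reads on. They also deposited the fraction methylated, which equalled the ratio of the counts. Methylated counts without a total (208 of 2520 CpG and mouse pairs at the 7 genes) were not used, and 0 columns belonged to no mapped mouse.

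Genes were placed with the GENCODE annotation of mm9. CpGs with a value in at least 36 mice were compared by Student's t-test, as in the study, over all of these CpGs with Benjamini-Hochberg adjustment. Named CpGs were also compared by exact permutation, or by 100000 permutations with all 10 mice in both groups. Means over gene windows required 3 tested CpGs and a value in every mouse. Intervals are at 95%. In the 4 comparisons the intervals, the FDR and the counts with p below 0.05 are those of Student's test, and the permutation p-values were not adjusted. Named were the tested CpG nearest each start, those with p below 0.05 (at most 8 per comparison), those with the largest SD per gene and those with the largest difference per comparison. Pck1 +75, Fbp1 +17038 and Pygl +18 and -11 were added after their values were seen. The alternatives were Welch's test, an exact Wilcoxon test, limma (version 3.58.1) on the log2 ratio of both kinds of reads after adding 0.5 to each, a quasi-binomial model, other coverage minimums and windows, summed strands, a depth covariate, and leaving out the mouse with the fewest reads. Gene means as deviations of each CpG, and without HF/HF replicate 8, were added after seeing the data. Tests were checked on simulated data. Python 3.11.15 and scipy 1.17.1 were used. The genes, lists and tests were chosen with earlier results of these data known. Reads of a fragment need not be separate molecules.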

Additional observations from a re-analysis of the deposited data

Results flagged for a closer look

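In 104 groups of values (gene means and named CpGs, by diet group), 10 had a highest or lowest mouse that stood apart from the others by more than the 95% critical value of Dixon's test. The test flags about 1 in 20 groups of independent, normally distributed values. These are percentages, some groups lay almost wholly at 0% or 100%, and some CpGs were named for their spread. The rate therefore does not apply here, and no excess can be read from the count. The Pklr gene mean of an HF/HF mouse was 6.26%, with the next at 46.7%, and that mouse had values at 5 of 14 Pklr CpGs. At Pklr -3777 an HF/HF mouse was at 19.4%, with the next at 8.11%, and at Pklr +7125 an HF/HF mouse was at 42.1%, with the next at 60%. At Ppargc1a +60209 an LF/HF mouse was at 46.2%, with the next at 78.6%, and an HF/LF mouse at 64.3%, with the next at 81.5%. At Pygl -1 the highest LF/HF mouse was at 5.26%, with the next at 2.5%, and 1 HF/HF mouse was at 3.57% where the other 9 were at 0%. At Fbp1 +17046 an LF/LF mouse was at 91.7%, with the next at 97.1%, and an HF/LF mouse at 94.7% where the other 9 were at 100%. At Pck1 +6305 an LF/HF mouse was at 27.0%, with the next at 15.8%.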

How the results depend on the processing

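The count of CpGs of the 7 genes at an FDR of 5% was 0 in all 42 alternative results that gave a value. Each of these is 1 comparison, or the interaction, under 1 alternative. The 4 comparisons had 10 alternatives each, and the interaction had fewer. The lowest FDR of a member CpG was 0.208, under the quasi-binomial model at Fbp1 +828. The count of genes past an FDR of 5% by their mean was also 0 in all alternatives run. With unadjusted p below 0.05 the counts ranged over the alternatives from 2 to 6 (4 as reported), 0 to 3 (1), 5 to 8 (7) and 5 to 8 (7) in the order of the report. The count of 2 came from leaving out the mouse with the fewest reads. The p-value of Fbp1 +828 in animals of HF fed dams ranged from 6.74e-05 to 0.000322 over the alternatives, and that of Pklr +7143 in animals of LF fed dams from 0.00252 to 0.0106. Pklr +7125 also stayed below 0.05 for both maternal diets, but several other CpGs did not stay below it. Fbp1 +17116 ranged from 0.0207 to 0.102 in animals of HF fed dams, and Pklr +7135 from 0.0256 to 0.0803 in animals of LF fed dams. For maternal diet in HF fed animals, Pklr -3759 ranged from 0.00846 to 0.112 and Fbp1 +17116 from 0.0289 to 0.164. None of the 264 alternative differences of named CpGs and 92 of gene means moved by more than 1 SD between mice, but for Pklr in HF/HF that SD (14.8) holds the mouse of replicate 8 itself. Some gene means did depend on which CpGs a mouse had. Without replicate 8, the Pklr difference of HF/HF and LF/HF turned from -4.21 to 0.420 percentage points, and that of HF/HF and HF/LF went from 0.203 (p = 0.968) to 4.83 (p = 0.0267). With deviations of each CpG, the Fbp1 difference of LF/HF and LF/LF went from 6.04 to 0.638. A minimum of 20 reads (2438 CpGs) and 10 reads in all 40 mice each left 0 CpGs of the 7 genes, so these gave no value. No paired analysis was possible because the labels give no litter or cage and the replicate numbers only follow the order of the samples, so littermates were treated as independent. Depth limits single values to steps of 10 percentage points at 10 reads.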
